A study of Mus musculus with 4 samples.

Results

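The 7 mouse genes for cyclin-dependent kinase (CDK) inhibitors, Cdkn1a, Cdkn1b, Cdkn1c, Cdkn2a, Cdkn2b, Cdkn2c and Cdkn2d, were followed in fetal liver of wild-type mice and of mice labelled as knockouts of hnRNP L, a splicing regulator that binds RNA. They were picked by gene symbol from 22011 genes, and their rows made up 11 of 28283 transcript rows and 26 of 1921627 splice junctions. RNA sequencing had been done on fetal liver cells of 2 wild-type mice (WT) and 2 mice of genotype hnRNP L -/- (KO). The protocols list C57BL/6 mice, an LckCre transgenic line, a ROSA26 tdTomato-EGFP reporter line and CD45.1 mice among the animals kept, without tying a line to a sample. The sources used here give neither the strain, the embryonic day, the kind of deletion nor any Cre of these 4 animals. No litter is given either, so the p-values measure only the spread between these 4 libraries.

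CDK inhibitors bind cyclins and their kinases and brake the cell cycle. The CIP/KIP genes Cdkn1a (p21), Cdkn1b (p27) and Cdkn1c (p57) encode proteins that bind cyclin-CDK complexes, above all those of Cdk2, whereas the INK4 genes Cdkn2a (p16), Cdkn2b (p15), Cdkn2c (p18) and Cdkn2d (p19) encode proteins that bind the cyclin D partners Cdk4 and Cdk6. Blood forms mainly in the liver before birth, and there p27 and p18 are known for their part in the exit of maturing red cell precursors from the cell cycle, and p57 for holding blood stem cells out of it.

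The targeted gene Hnrnpl stood at 460 and 603 counts per 1000000 reads (CPM) in WT and at 280 and 269 in KO, a log2 fold change of -0.95 (SE 0.16; edgeR adjusted p = 0.0114), so transcript remained in both KO libraries. Mapped reads ranged from 70020061 to 111324295 per library. All 9 hepatocyte and all 9 erythroid markers were detected in the libraries. Several marker lists moved with genotype. Of the 9 erythroid markers, 7 were lower and none was higher, and their summed level was 38341 to 42026 CPM in WT and 18592 to 24982 CPM in KO. Of 8 proliferation genes, 5 were lower, with sums of 9459 to 9802 CPM in WT and 5158 to 6412 CPM in KO. Of 9 hepatocyte markers, 3 were higher (33982 to 47677 CPM in WT, 58323 to 70046 CPM in KO), as were 5 of 7 megakaryocyte, 5 of 7 granulocyte and 4 of 7 endothelial markers. Mixed lists were macrophage, with 3 of 6 higher and 2 lower, and mesenchymal, with 2 of 7 higher and 1 lower. Over all tested genes 11.4% were higher and 9.44% lower. All 8 cardiac muscle genes were lower, at a sum of 56.6 and 271 CPM in WT replicates 1 and 2 against 3.72 and 6.34 CPM in KO. No marker was at 0 in all libraries. KO replicate 2 was male by its reads (Xist 336 reads, Ddx3y 2839 reads) and the other 3 libraries female (Xist 31498 to 51618 reads, Ddx3y 5 to 14 reads). In such bulk samples fewer cells of a type and less RNA per cell cannot be told apart, and the part of these shifts in the inhibitors' levels was not tested.

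Of the 7 inhibitor genes, 2 rose in KO (Cdkn1a and Cdkn1c), 1 fell (Cdkn2c), 2 did not pass the threshold of an adjusted p of 0.05 (Cdkn1b and Cdkn2d), and 2 had too few reads to be tested (Cdkn2a and Cdkn2b). Among all 15028 tested genes, 20.8% passed, 11.4% as higher and 9.44% as lower. In all 5 tested inhibitor genes the KO values lay wholly beyond the WT values, and this held for 65.2% of all tested genes as well. The sign of each of the 5 log2 fold changes was the same under every scaling tried. Over all genes, 54.7% of the calls were higher with TMM scaling and 73.5% with mapped reads as library sizes. The median log2 fold change of all tested genes was 0.02.

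**Figure D1:**
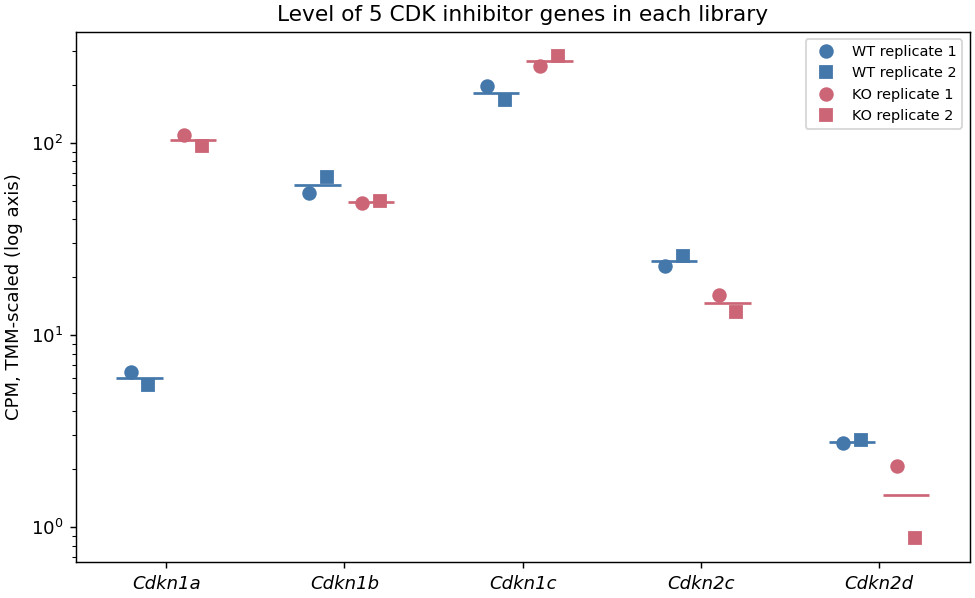
Level of the 5 tested CDK inhibitor genes in each of the 4 libraries, in TMM-scaled CPM on a log axis, with a bar at each group's mean (n = 2). Cdkn1a moved from 5.47 to 6.44 CPM in WT up to 96.2 to 110 CPM in KO, while the other 4 genes changed by much less and Cdkn2d was spread most within KO.

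Cdkn1a encodes p21, which binds CDK2 complexes and the replication clamp PCNA and is a classical target of the tumour suppressor p53. The gene lies on chromosome 17, plus strand (the sources used here name no build), with 2 annotated transcripts that differ in their first exon. NM_001111099 runs from 29227931 to 29237667 and NM_007669 from 29230717 to 29237667, so their starts are 2786 bases apart. RefSeq's promoter table, which is on GRCm38.p6 and not on the files' build, holds both starts, 2790 bases apart. The bases just before each start are shown because reads on the 2 first exons are compared further on. Capitals mark a match to the p53 full site and the letters TATAA on either strand in the upstream sequence (chr17:29090729-29090978, plus strand), and TATAA in the downstream one (chr17:29093519-29093768, plus strand).
Cdkn1a upstream promoter: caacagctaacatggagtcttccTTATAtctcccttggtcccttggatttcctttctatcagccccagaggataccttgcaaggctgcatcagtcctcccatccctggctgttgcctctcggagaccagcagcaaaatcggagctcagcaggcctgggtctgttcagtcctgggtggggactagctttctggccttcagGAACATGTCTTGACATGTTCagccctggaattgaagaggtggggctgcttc
Cdkn1a downstream promoter: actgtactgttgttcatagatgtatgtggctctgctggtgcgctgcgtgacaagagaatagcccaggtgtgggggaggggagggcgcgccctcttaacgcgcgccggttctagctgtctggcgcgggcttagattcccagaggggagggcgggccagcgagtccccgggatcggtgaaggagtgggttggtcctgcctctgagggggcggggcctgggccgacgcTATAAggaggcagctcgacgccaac
The p53 match has 20 bases with 1 mismatch to the consensus and lies 51 to 32 bases before the upstream start. The search allowed at most 1 mismatch, only outside the core letters CWWG (W is A or T) of the repeated motif, and no gap between the repeats. By this rule, on both strands, such a match was found in 15 of 32851 promoter windows of this length (0.046%). TATAA on either strand was found in 7485 of them (22.8%). It begins 25 bases before the downstream start, and in the upstream promoter it stands on the other strand, 227 bases before the start. Windows were found for 6 of the 7 inhibitor genes, 9 windows in all. Of these, 1 held the p53 match and 2 held TATAA, all of them in Cdkn1a. A match describes these letters and shows neither binding nor a cause.

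Cdkn1a showed the largest change of the family. It was at 6.44 and 5.47 CPM in the WT libraries and at 110 and 96.2 CPM in the KO libraries. Both KO libraries were far above both WT libraries, and the spread within each group was small against the difference. The rise was 17.4-fold (95% interval 13.8 to 22.1), a log2 fold change of 4.12 (SE 0.15; edgeR adjusted p = 8.95e-05). Among 15028 tested genes it had the smallest p and the 13th largest log2 fold change. With each library left out in turn the log2 fold change was 4.00 to 4.24 and always passed. The rows of the 2 transcripts held nearly the same reads: the smaller count was 96.6% to 98.3% of the larger in each library. Fitted row by row, their log2 fold changes were 4.12 and 4.13.

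The junction reads tell the first exons apart. The junction out of the upstream first exon (29228046 to 29235342) had 0 reads in each WT library and 8 and 1 in KO. The junction out of the downstream first exon (29230806 to 29235342) had 9 and 9 reads in WT and 178 and 220 in KO. In each KO library nearly all first-exon reads came from the downstream exon. The p53 match lies upstream of both starts, and outside the 250 bases searched before the downstream one. Its part in the reads of either first exon was not tested. Per 1000000 known-junction reads the downstream junction was at 1.44 ± 0.567 in WT and 28.3 ± 4.81 in KO (SD, n = 2), 19.6 times as high. The upstream exon gave 4.30% of first-exon reads in KO replicate 1 (95% Wilson interval 2.20% to 8.26%) and 0.452% in KO replicate 2 (0.0799% to 2.52%). With 0 of 9 first-exon reads from the upstream exon in each WT library, the 95% Wilson interval of its share reached up to 29.9% there. These intervals cover counting error only.

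The last Cdkn1a junction (29235782 to 29236289) rose less. It had 11 and 9 reads in WT and 90 and 69 in KO, and its level per 1000000 known-junction reads was 6.83 times as high in KO. First-exon junctions therefore made up 45.0% and 50.0% of Cdkn1a junction reads in WT and 67.4% and 76.2% in KO. The groups did not overlap, but the Wilson intervals in WT, with 20 and 18 reads, ran from 25.8% to 71.0%. Usage, which sets each junction's reads against those of the gene's remaining junctions, did not pass for either junction: the log2 usage change was 0.61 for the downstream first exon and -0.88 for the last junction (edgeR diffSpliceDGE, adjusted p = 1.00 for both). Of the 105434 junctions tested for usage, 4 passed (0.00379%), and of the 8 inhibitor junctions none did, with none at an unadjusted p under 0.05 either.

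**Figure D2:**
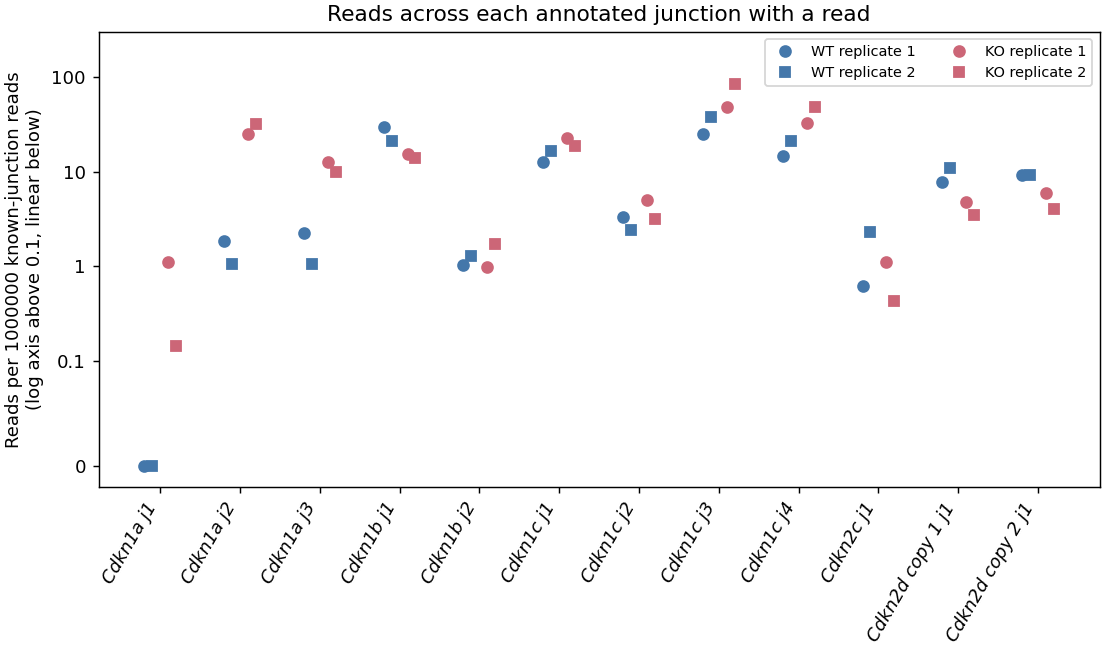
Reads across each of the 12 known inhibitor junctions with a read, per 1000000 known-junction reads, in each library; the axis is logarithmic above 0.1 and linear below. The Cdkn1a junctions are numbered along the gene, and j2, from the downstream first exon, rose from 1.04 to 1.85 in WT up to 24.9 to 31.7 in KO, while j1, from the upstream first exon, had no read in WT.

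Cdkn1b encodes p27, an inhibitor of Cdk2 complexes whose protein level is set largely by destruction. It lies on chromosome 6 (134870419 to 134875543, plus strand). Its level was 54.9 and 66.4 CPM in WT and 48.7 and 49.6 CPM in KO. Both KO libraries were below both WT libraries, which themselves differed by more than the gap between WT replicate 1 and KO. The log2 fold change was -0.30 (95% interval -0.59 to -0.01, SE 0.12) and did not pass (edgeR adjusted p = 0.119). It passed under none of the alternatives run, with log2 fold changes of -0.44 to -0.16. Its first junction (134871412 to 134871974) had 147 and 181 reads in WT and 111 and 97 in KO, and the second (134872101 to 134874261) had 5 and 11 in WT and 7 and 12 in KO. Per 1000000 known-junction reads the first was lower in both KO libraries (25.6 ± 6.48 in WT, 14.7 ± 1.10 in KO; SD, n = 2), and the second overlapped between groups. Usage of neither passed (edgeR adjusted p = 1.00 for both).

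Cdkn1c encodes p57 and is imprinted, with expression mainly from the maternal allele. It lies on chromosome 7 (150644244 to 150646955, minus strand). Its level was 198 and 167 CPM in WT and 251 and 282 CPM in KO. Both KO libraries were above both WT libraries. The rise was 1.46-fold (95% interval 1.17 to 1.82), a log2 fold change of 0.55 (SE 0.14; edgeR adjusted p = 0.0314). The call depended on single libraries. Without WT replicate 2 the log2 fold change was 0.43 (edgeR adjusted p = 0.171). It was 0.46 without KO replicate 2, the male library (edgeR adjusted p = 0.116). Over all alternatives the adjusted p ran from 0.00295 to 0.171. Of the markers, 3 of 9 hepatocyte, 4 of 7 endothelial, 5 of 7 megakaryocyte and 5 of 7 granulocyte genes were higher in KO too. Hepatocyte sums were 33982 to 47677 CPM in WT and 58323 to 70046 CPM in KO. Endothelial sums were 490 to 543 CPM in WT and 789 to 839 CPM in KO. The part of these markers in the rise of Cdkn1c was not tested.

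The 2 Cdkn1c transcripts differ by 38 bases in length, which is the distance between the ends of 2 alternative junctions. The junction from 150646583 to 150646758 had 122 and 331 reads in WT and 347 and 587 in KO. The one from 150646621 to 150646758 had 72 and 183 reads in WT and 232 and 337 in KO. Both were used in every library, in a similar ratio. The first took 63.6% ± 1.07 of the pair's reads in WT and 61.7% ± 2.54 in KO (SD, n = 2), with overlapping libraries. The junction nearest the 3′ end (150644926 to 150645017) had 62 and 144 reads in WT and 161 and 131 in KO, and the remaining one (150645155 to 150645700) had 16 and 21 in WT and 36 and 22 in KO. None of the 4 passed the usage test (edgeR adjusted p = 1.00 for each). The rows of the 2 transcripts shared 99.4% to 99.8% of their reads and both gave a log2 fold change of 0.54.

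Cdkn2a encodes p16 from one transcript and, from an upstream first exon in another reading frame, Arf, which holds back Mdm2 and so spares p53. It lies on chromosome 4, minus strand. The Arf row NM_009877 (88920377 to 88940523) had 1 and 0 reads in WT and 3 and 0 in KO, and the p16 row NM_001040654 (88920377 to 88928096) had 0 and 1 in WT and 0 and 0 in KO. Cdkn2a was thus at or near no reads in every library. With a floor of 3 reads, a library at 0 could still hold up to 0.0312 reads per 1000000 mapped reads in KO replicate 2. Cdkn2b, the neighbouring gene for p15 (88952198 to 88956941, minus strand), had 4 and 3 reads in WT and 3 and 14 in KO. Only KO replicate 2 stood out, and the other KO library was at the level of WT. No junction of either gene had a read. In a fit without a filter on low counts neither passed (edgeR adjusted p = 0.772 for Cdkn2a and 0.619 for Cdkn2b). At this depth a difference was not detectable for them.

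Cdkn2c encodes p18, an inhibitor of Cdk4 and Cdk6, and lies on chromosome 4 (109333481 to 109337977, minus strand). Its level was 22.9 and 25.6 CPM in WT and 16.1 and 13.2 CPM in KO. Both KO libraries were below both WT libraries. The KO level was 0.604 of WT (95% interval 0.473 to 0.773), a log2 fold change of -0.73 (SE 0.15; edgeR adjusted p = 0.0192). The call was lost without WT replicate 2 (log2 fold change -0.64, edgeR adjusted p = 0.0943). It was also lost when KO replicate 2 was left out (-0.59, edgeR adjusted p = 0.0816). Over all alternatives the adjusted p ran from 0.000859 to 0.0943. The sums of erythroid markers and of proliferation genes were lower in both KO libraries too, and their part in this fall was not tested. Its 1 known junction (109334231 to 109337623) had 3 and 20 reads in WT and 8 and 3 in KO, too few to compare.

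Cdkn2d encodes p19, the fourth INK4 protein, which is unrelated to Arf. It has 2 copies in the files, on chromosome 9 from 21092908 to 21095653 (minus strand) and from 123836860 to 123839607 (plus strand), each 1270 bases long when spliced. The first copy was at 2.72 and 2.84 CPM in WT and at 2.07 and 0.878 CPM in KO. KO was below WT in both libraries, and most of the difference came from KO replicate 2. The log2 fold change was -0.92 (95% interval -1.88 to 0.03, SE 0.41) and did not pass (edgeR adjusted p = 0.145). It passed when KO replicate 1 was left out (-1.67, edgeR adjusted p = 0.0361) and without a filter on low counts (-0.91, edgeR adjusted p = 0.0483). Over all alternatives the adjusted p ran from 0.0361 to 0.471.

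The level of Cdkn2d is less certain than that of its relatives. Its first copy had 88 and 158 transcript reads in WT and 99 and 45 in KO, and its second had 4 and 7 in WT and 1 and 1 in KO. The junction tables gave the copies nearly equal reads: 38 and 95 in WT and 34 and 24 in KO for the first (21093776 to 21095253), and 45 and 80 in WT and 43 and 28 in KO for the second (123837260 to 123838739). Known-junction reads of both copies thus numbered 77.8 to 116 per 100 reads of the transcript row used, against 4.25 to 9.62 for Cdkn1a, Cdkn1b and Cdkn1c. Transcript reads were counted only at a mapping quality of at least 10, and whether reads that fit both copies were dropped there was not tested. Summed over both copies and per 1000000 known-junction reads, the junctions were at 17.0 and 20.3 in WT and 10.8 and 7.49 in KO. On this count too both KO libraries were below both WT libraries, at 0.489 of the WT level.

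**Figure D3:**
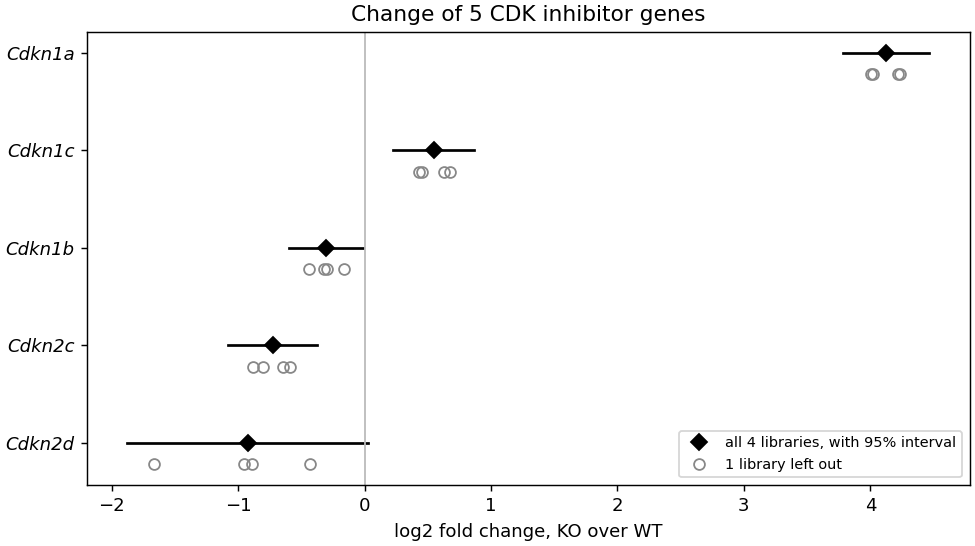
Log2 fold change (KO over WT) of the 5 tested inhibitor genes with the 95% interval of the edgeR fit to all 4 libraries (diamond and line), and the values with 1 library left out (open circles). The interval of Cdkn2d crosses 0, that of Cdkn1b ends at -0.01, and Cdkn1a lies at 4.00 to 4.24 whichever library is left out.

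Levels were compared between genes on the deposited RPKM scale, reads per kilobase of transcript and 1000000 mapped reads. In WT the order was Cdkn1c (48.1 and 43.7), Cdkn1b (10.5 and 13.8), Cdkn2c (9.56 and 11.6), Cdkn1a (1.56 and 1.43), Cdkn2d (0.990 and 1.12), Cdkn2b (0.0410 and 0.0193) and Cdkn2a (0.0154 and 0). Cdkn1b and Cdkn2c overlapped between libraries, and Cdkn2b and Cdkn2a rest on 0 to 4 reads each. All other neighbours in this order were apart by more than their libraries' spread. The place of Cdkn2d rests on its uncertain transcript count: per 1000000 known-junction reads its copies together (17.0 and 20.3) were above the downstream Cdkn1a junction (1.85 and 1.04) in WT. In KO the order was Cdkn1c (64.7 and 79.0), Cdkn1a (28.4 and 26.8), Cdkn1b (9.94 and 11.0), Cdkn2c (7.17 and 6.36), Cdkn2d (0.800 and 0.368), Cdkn2b (0.0221 and 0.104) and Cdkn2a (0.0331 and 0). By RPKM Cdkn1a thus moved from the fourth to the second place, and only Cdkn2b and Cdkn2a overlapped. The place of Cdkn2d is uncertain in KO as well. Per 1000000 known-junction reads its copies together (10.8 and 7.49) were above the single Cdkn2c junction (1.12 and 0.432), which had few reads.

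The summed RPKM of the 7 genes was 70.7 and 71.6 in WT and 111 and 124 in KO, or 71.2 ± 0.635 against 117 ± 8.90 (SD, n = 2). Both KO libraries were above both WT libraries. The net gain was 46.1 RPKM. Cdkn1a added 26.1 and Cdkn1c 25.9, like amounts on this scale despite the far greater fold change of Cdkn1a. The RPKM scale uses mapped reads. With TMM scaling the mean CPM went from 5.96 in WT to 103 in KO for Cdkn1a, and from 183 to 266 for Cdkn1c. Cdkn2c, Cdkn1b and Cdkn2d offset part of the RPKM gain, with differences of -3.79, -1.69 and -0.470. The value for Cdkn2d rests on its uncertain transcript count, and so do the sums, the net gain and the shares as far as it enters them. As a share of the sum, Cdkn1a went from 2.10% ± 0.143 to 23.6% ± 2.74. The share of Cdkn1c stayed the largest (64.5% ± 4.86 and 61.1% ± 3.99), with overlapping libraries. Cdkn1b went from 17.1% ± 3.07 to 8.92% ± 0.0454 and Cdkn2c from 14.8% ± 1.86 to 5.80% ± 0.928. With 2 libraries against 2 no exact two-sided permutation p below 0.333 is possible, so these sums and shares are given without a test.

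**Figure D4:**
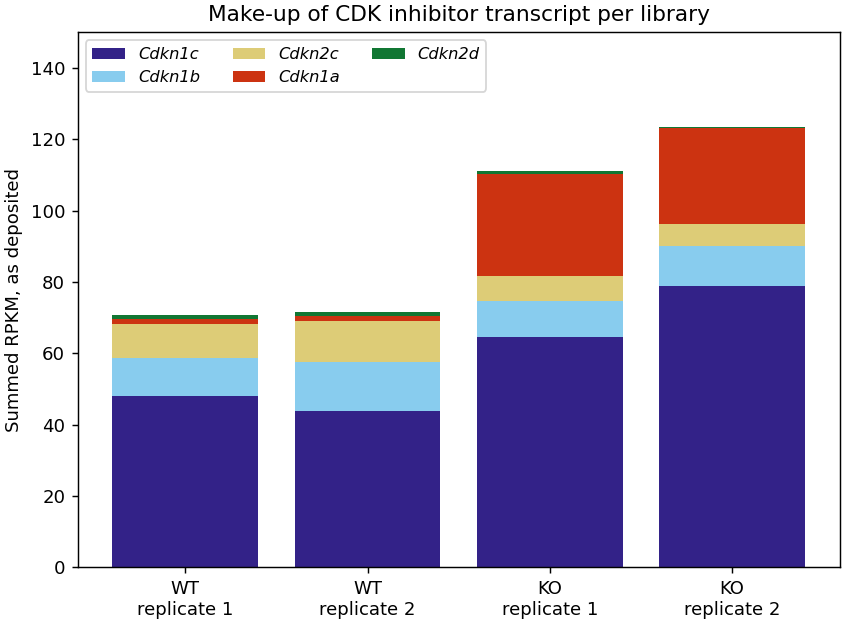
Deposited RPKM of the CDK inhibitor genes stacked within each library, in linear units from 0; Cdkn2a and Cdkn2b are too low to be drawn. The Cdkn1a segment is thin in both WT libraries (1.56 and 1.43 RPKM) and is the second largest in both KO libraries (28.4 and 26.8 RPKM).

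The genes of most like pattern were found by the Euclidean distance of log2 CPM centred on each gene's mean over the 4 libraries, in a pool of 11176 or 11177 genes. For Cdkn1a they were Eda2r (distance 0.47; 1.08 and 1.39 CPM in WT, 19.1 and 17.9 CPM in KO), 6530418L21Rik (1.26) and Tmtc1 (1.69). In this pool only Eda2r lay nearer to Cdkn1a than 6530418L21Rik did. Tested genes whose log2 CPM averaged under 2 were left out of the pool, so their distances are not known. For Cdkn1c the nearest were Pid1 (0.01), Crot (0.02) and Zfp516 (0.02), and for Cdkn1b they were Fnip2, Hnrnph2 and Hyls1 (0.04 each). For Cdkn2c the nearest were Lpcat1, Ank1 and Hspa4l (0.04 each). For Cdkn2d they were Hist1h4b (0.18), Hist1h2ai (0.19) and Hist1h2an (0.20), histone genes with close copies that can share reads. These distances describe 4 libraries only.

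The partners of the inhibitors moved in both directions. Of 12 CDKs and cyclins, 7 fell and 2 rose, where 9.44% of all tested genes fell and 11.4% rose. The list's median log2 fold change was -0.51, against 0.02 for all tested genes. The mitotic cyclin Ccnb2 was at 244 and 265 CPM in WT and 156 and 136 in KO (log2 fold change -0.80, edgeR adjusted p = 0.00998). The E-type cyclin Ccne2 was at 132 and 143 CPM in WT and 87.8 and 91.0 in KO (-0.62, edgeR adjusted p = 0.0118). In both, KO lay below WT without overlap. Cdk1, Cdk2, Ccna2, Ccnb1 and Ccnd3 fell too. The D cyclins did not move together: Ccnd1 rose from 101 and 99.6 to 133 and 185 CPM and Ccnd2 from 120 and 142 to 183 and 238 CPM, whereas Ccnd3 fell from 487 and 418 to 278 and 245 CPM. Cdk4, the kinase that INK4 proteins bind, was at 369 and 361 CPM in WT and 308 and 269 in KO and did not pass (edgeR adjusted p = 0.103), and neither did Cdk6 (0.0969). Without WT replicate 2 and without KO replicate 2, 3 of the 12 fell in each case. Those that rose numbered 0 without KO replicate 2 or without WT replicate 1, and 1 without WT replicate 2. Proliferation genes, a list that shares Ccnb1 with this one, fell alongside, and their part was not tested.

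Of 11 genes of the retinoblastoma and E2F families, which act downstream of the CDKs, 6 fell and none rose (median log2 fold change -0.50), where 9.44% of all tested genes fell. None rose at an unadjusted p under 0.05 either, nor with DESeq2 or voom. Of the erythroid markers 7 of 9, and of the proliferation genes 5 of 8, fell in the same libraries, and their part was not tested. E2f1 was at 104 and 106 CPM in WT and 61.5 and 53 in KO (-0.88, edgeR adjusted p = 0.00716), and E2f2 at 625 and 573 CPM in WT and 335 and 274 in KO (-0.97, edgeR adjusted p = 0.00993). Rb1, Rbl1, E2f4 and E2f7 fell as well. The count that fell was 2 without KO replicate 2, 3 without WT replicate 2, and 3 with mapped reads as library sizes. Of 11 genes listed for the turnover of p27 and p21, 4 fell and none rose (median -0.27), beside 9.44% of all tested genes that fell. None rose at an unadjusted p under 0.05, nor with DESeq2 or voom. Those that fell included Dtl and Pcna, which serve the PCNA-bound ligase that destroys p21, and Cks1b, the cofactor of Skp2 at p27. Fzr1 fell too, and these falls need not bear on turnover in the same direction. Dtl was at 243 and 251 CPM in WT and 159 and 162 in KO (-0.62, edgeR adjusted p = 0.0133), and Cks1b at 80.2 and 77.3 in WT and 59.2 and 48.1 in KO (-0.55, edgeR adjusted p = 0.0248). Skp2 itself was at 46.3 and 45.4 CPM in WT and 38.1 and 39.7 in KO and did not pass (edgeR adjusted p = 0.154). This count was 1 without KO replicate 2, 2 without WT replicate 1, 0 without WT replicate 2, and 2 with mapped reads as library sizes. Cdkn3, a phosphatase that acts on CDKs and is no member of either inhibitor family, fell from 71.8 and 67.8 CPM to 38.7 and 37.2 (-0.88, edgeR adjusted p = 0.00673). It alone passed among 8 other negative regulators of CDKs (median -0.22), a share of 12.5% beside 20.8% of all tested genes. Pkmyt1, a kinase that inactivates Cdk1, was next at 37.6 and 34.5 CPM in WT and 32.2 and 28 in KO (-0.26, edgeR adjusted p = 0.178).

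**Figure D5:**
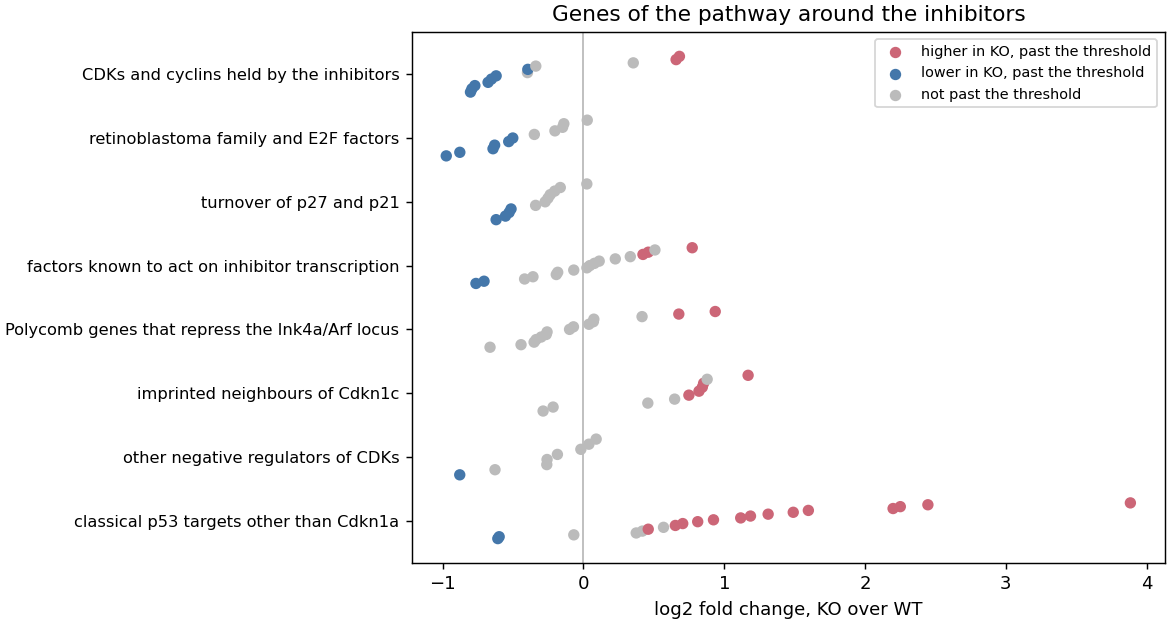
Log2 fold change (KO over WT) of each tested gene in 8 lists around the CDK inhibitors, coloured by whether it passed an edgeR adjusted p of 0.05. The retinoblastoma and E2F list holds 6 genes that fell and none that rose, and the list of p53 targets holds 14 that rose and 2 that fell.

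Among 17 tested factors that act on inhibitor transcription, 3 rose and 2 fell (median log2 fold change 0.04). The share called, 29.4%, is near the 20.8% of all tested genes. With the DESeq2 test 3 rose and 4 fell. Myc, which represses Cdkn1a and Cdkn2b with its partner Zbtb17, rose from 48.4 and 64.0 to 92.3 and 99.9 CPM (0.77, edgeR adjusted p = 0.0154), and Mdm2 and Id2 rose too. Foxo4 fell from 70.9 and 76.5 to 47.7 and 42.6 CPM (-0.71, edgeR adjusted p = 0.0107), and the erythroid factor Klf1 fell from 808 and 705 to 526 and 365 CPM, in step with the erythroid markers of which it is 1. Mdm2 is also counted in the list of p53 targets given below. Trp53 was at 79.1 and 133 CPM in WT and 161 and 141 in KO and did not pass (edgeR adjusted p = 0.141). The count that rose was 0 without KO replicate 2 and 1 without KO replicate 1 or WT replicate 1. The count that fell was 1 without KO replicate 2, WT replicate 1 or WT replicate 2. The fall of Foxo4 passed under every alternative run, and the rise of Myc under all but that without KO replicate 2 (edgeR adjusted p = 0.0597).

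Of 20 classical p53 targets other than Cdkn1a, 14 rose and 2 fell (11.4% and 9.44% over all tested genes), with a median log2 fold change of 0.87. This list was chosen with the rise of such genes in these libraries already known, and it is no independent evidence of their direction. Eda2r, a TNF receptor family member, rose from 1.08 and 1.39 to 19.1 and 17.9 CPM (3.88, edgeR adjusted p = 0.00075). Trp53inp1 rose from 22.2 and 20 to 62.8 and 64.6 CPM (1.60, edgeR adjusted p = 0.00411). Within the list only Eda2r came near the log2 fold change of Cdkn1a. Btg2 (353 and 311 CPM in WT, 243 and 195 in KO) and Sesn1 (47.0 and 44.1 in WT, 30.5 and 29.2 in KO) fell. The count that fell was 0 without KO replicate 2 or WT replicate 1 and 1 without WT replicate 2, while the count that rose stayed at 10 to 14 under all alternatives run.

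Of 10 genes that lie near Cdkn1c in its imprinted domain or the one beside it, 5 rose and none fell (median log2 fold change 0.78), where 11.4% of all tested genes rose. None fell at an unadjusted p under 0.05, nor with DESeq2 or voom. Hepatocyte (3 of 9), endothelial (4 of 7), megakaryocyte (5 of 7) and granulocyte (5 of 7) markers rose in the same libraries, and their part was not tested. Phlda2, which like Cdkn1c is maternally expressed, rose from 4.71 and 4.00 to 9.13 and 10.4 CPM (1.17, edgeR adjusted p = 0.0108). Cd81 rose from 132 and 125 to 244 and 216 CPM (0.84, edgeR adjusted p = 0.00811). Slc22a18, Igf2 and H19 rose too, whereas Tssc4 (38.6 and 42.2 CPM in WT, 36.6 and 29.7 in KO) and Nap1l4 (181 and 190 in WT, 156 and 164 in KO) did not pass. Without WT replicate 2 or without KO replicate 2, 2 of the 10 rose. Of 15 Polycomb genes that keep the Cdkn2a and Cdkn2b locus silent, Pcgf2 rose from 3.75 and 4.59 to 6.73 and 9.28 CPM (0.94, edgeR adjusted p = 0.0297). None of the 15 fell with edgeR (median -0.10), but 6 were lower at an unadjusted p under 0.05. At least 5587 of all 15028 tested genes had an unadjusted edgeR p under 0.05, in either direction. With the DESeq2 test 3 fell, without a filter on low counts 2, and with DESeq2 size factors or voom 1. The rise of Pcgf2 did not pass without WT replicate 1, without WT replicate 2 or without KO replicate 2.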

How the data were processed

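The authors deposited, for each of 4 libraries, a raw count of reads per RefSeq transcript. Per the file headers, the count took primary alignments only, at a mapping quality of 10 or more, with 5 as the score clear zone and 0 as the lowest score. Per the file headers, the same tables hold RPKM values and reads per nucleotide, a coverage signal; recomputing either from the counts gave the deposited value in 100% of rows. A second deposited table gives a raw count of reads per splice junction. Per the labels' protocols, rRNA was depleted, fragments of 150 to 300 bp were amplified for 12 cycles, and 2 barcoded libraries were sequenced on each of 2 slides, with no statement of which shared a slide, so an effect of the slide was not tested. The sources used here do not name the aligner, the build, the use of strand or how junction reads were counted. The coordinates are not those of GRCm38: 134 of 19501 genes had the same start and end.

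For each gene the transcript row with most reads was used (33738843 to 56895360 reads per library). Genes were tested with edgeR 4.0.16 in R 4.3.3 (quasi-likelihood, TMM, filterByExpr, Benjamini-Hochberg over 15028 genes, adjusted p of 0.05). The standard error is the log2 fold change over the square root of F, and its 95% interval uses the degrees of freedom of the fit. Junctions with at least 10 reads, in genes with at least 2 of them, were tested with diffSpliceDGE, whether annotated as known or not. Junction levels were scaled to the known-junction reads, 4875332 to 8624429 per library. Alternatives were DESeq2 1.42.0, its size factors, limma 3.58.1 voom, mapped reads as library sizes, no filter, summed rows, single rows, a block, and each library left out. Both procedures were run on simulated data. The simulated junctions had more reads, and came from genes with more junctions, than the minimum of the real test. That simulation therefore does not cover genes with few junctions, such as Cdkn1a and Cdkn1b. Promoter sequences are from RefSeq.

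The members, the gene lists and the tests were chosen with earlier results of these data known. Named were the members, Hnrnpl, the 3 genes of most like pattern per tested member (mean log2 CPM 2 or more), and the 2 genes of each list with the smallest p; other list genes were named after their values were seen. Of the factors listed, 2 symbols were not in the files and 1 gene was not tested. The result of 1 list gene is not reported here.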

Additional observations from a re-analysis of the deposited data

How the results depend on the processing

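No log2 fold change of the 5 tested inhibitor genes changed sign under any alternative. Cdkn1a passed under all of them and Cdkn1b under none. With 1 library left out, the log2 fold change was 0.43 to 0.67 for Cdkn1c, -0.88 to -0.59 for Cdkn2c and -1.67 to -0.43 for Cdkn2d, with calls changed as given above; without a filter on low counts Cdkn2d passed (-0.91, edgeR adjusted p = 0.0483). With 1 library left out, 641 to 1307 genes were higher and 338 to 1185 lower in place of 1711 and 1419. By library left out, these were 684 and 338 (KO replicate 2), 641 and 464 (WT replicate 2), and 996 and 620 (WT replicate 1). Over the 8 lists, 14 to 22 genes were higher and 8 to 19 lower in place of 25 and 22. With mapped reads as library sizes 2291 genes were higher and 824 lower, and the median log2 fold change was 0.11 in place of 0.02. Junctions past the usage threshold numbered 2 among known junctions alone and 1 to 5 with 1 library left out, in place of 4, and no inhibitor junction passed under any alternative. The labels pair no samples. File names share a number between a WT and a KO library, and the within-group differences so paired correlated at 0.135 over 15028 genes. A replicate block by that number gave 2342 genes higher and 1999 lower and changed no call of an inhibitor gene. In the lists it called 4 Polycomb genes lower in place of 0 and 4 transcription factors lower in place of 2 (log2 fold changes of the inhibitors were Cdkn1a 4.12, Cdkn1b -0.30, Cdkn1c 0.55, Cdkn2c -0.73, Cdkn2d -1.03). Depth limits what can be said of Cdkn2a, Cdkn2b and the junctions with few reads.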
